A study of Rattus norvegicus with 16 samples.

Results

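Kidney cortex of male rats carried signal from 10 genes for amino acid and peptide transporters of the proximal tubule: Slc6a19, Slc6a18, Slc7a9, Slc3a1, Slc7a7, Slc7a8, Slc16a10, Slc1a1, Slc6a13 and Slc15a2. They were taken by gene symbol, as the scanner files give it. In all, 34742 genes had a probe, counted after probes with a RefSeq accession took its symbol. The 10 genes had 13 probes, of which 12 passed the filter on dim signal, and all 10 were among the 16024 genes tested. The groups were Jcl:SD wild-type rats and BRCA1+/- rats (heterozygous from here on), each untreated or given ferric nitrilotriacetate (Fe-NTA), an iron chelate that injures the proximal tubule by oxidation. Fe-NTA was injected intraperitoneally from 4 weeks of age for 1 or 3 weeks, at 5 mg iron/kg for the first 2 doses, 7 mg iron/kg for the last 3 of the first week and 10 mg iron/kg, 5 times a week, in weeks 2 and 3. The kidneys were collected 48 h after the final dose. In each genotype 2 arrays were untreated, 3 came from 1 week and 3 from 3 weeks of Fe-NTA, 16 in all. For the untreated rats no age, vehicle or sampling time is labelled, so age and treatment cannot be told apart against them, and time, age and dose cannot be told apart between 3 weeks and 1 week. The labels do not describe the BRCA1 mutation or say that the arrays of a group are separate rats. The p-values therefore cover the spread among arrays, which may be technical.

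The proximal tubule takes back nearly all filtered amino acids. Carriers in the brush border, such as the sodium-coupled neutral amino acid transporter Slc6a19 and the cystine and dibasic amino acid exchanger made of Slc7a9 and Slc3a1, bring them into the cell, and carriers in the basolateral membrane, such as Slc7a7, Slc7a8 and Slc16a10, pass them on to the blood. Loss of SLC6A19 in people causes Hartnup disorder, loss of SLC3A1 or SLC7A9 causes cystinuria, and loss of SLC7A7 causes lysinuric protein intolerance. Collectrin (Cltrn) is needed to bring Slc6a19 and Slc6a18 to the brush border.

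Sequence is shown for 3 members because Slc6a19 and Slc6a18 lie next to each other and only Slc6a19 was called in any comparison, and because Slc3a1 had the only match to an HNF4 motif. In GRCr8 the gene Slc6a19 is at chr1:31414744-31434932 and Slc6a18 at chr1:31436577-31450478, with 1644 bases between them. Slc3a1 is at chr6:15361037-15396695. The promoter windows from RefSeq (GRCr8), 250 bases before to 50 after the listed start, were on hand for 8 of the 10 members. They are printed 5′ to 3′ for Slc6a19 (plus strand, chr1:31414494-31414793), Slc6a18 (plus strand, chr1:31436403-31436702) and Slc3a1 (minus strand, chr6:15394700-15394999). The listed starts of Slc6a18 and Slc3a1 lie inside the gene bounds given above, and the Slc3a1 window lies wholly inside them. Motif positions count from the listed starts. Capitals mark matches to CAAAGTCCA (a core of HNF4 sites) and TATAAA (the TATA box), on either strand, and the Slc6a18 window holds neither.
Slc6a19 promoter: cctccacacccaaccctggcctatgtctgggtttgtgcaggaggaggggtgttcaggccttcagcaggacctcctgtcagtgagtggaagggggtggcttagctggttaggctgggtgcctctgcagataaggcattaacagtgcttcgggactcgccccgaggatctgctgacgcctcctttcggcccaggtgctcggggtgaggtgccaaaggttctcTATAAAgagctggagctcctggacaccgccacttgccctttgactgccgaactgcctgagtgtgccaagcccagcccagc
Slc6a18 promoter: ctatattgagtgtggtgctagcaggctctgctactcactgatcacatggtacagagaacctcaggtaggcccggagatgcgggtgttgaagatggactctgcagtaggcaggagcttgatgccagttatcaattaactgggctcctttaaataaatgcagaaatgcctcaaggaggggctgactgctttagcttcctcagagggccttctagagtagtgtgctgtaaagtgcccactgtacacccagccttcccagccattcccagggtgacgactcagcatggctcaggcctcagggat
Slc3a1 promoter: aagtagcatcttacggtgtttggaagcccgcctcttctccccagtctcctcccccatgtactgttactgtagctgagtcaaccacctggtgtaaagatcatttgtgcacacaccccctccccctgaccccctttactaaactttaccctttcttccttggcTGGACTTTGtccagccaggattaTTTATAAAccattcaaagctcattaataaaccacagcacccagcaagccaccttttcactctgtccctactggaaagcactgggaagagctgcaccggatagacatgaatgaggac

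TATAAA lay in Slc6a19 at position -30 and in Slc3a1 at -64 with an overlapping match on the other strand from -66, and the motif was in 14.2% of the 33469 promoters in the table. The HNF4 core was in Slc3a1 alone of the 8, at -89, and in 0.391% of all promoters. AGGTCA, a nuclear receptor motif, was in Slc7a9, Slc7a7 and Slc16a10 and in 16.2% of all promoters, and TGACNNNGC, the core of NRF2 sites, in Slc3a1 and Slc7a7 and in 12.1%. All motifs were searched on both strands. A match is a description of letters and not a binding site.

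The arrays read the neighbours through separate 60-base probes. The values of Slc6a19 rest on the probe shown, and the second probe of Slc6a18 is shown because it serves as a check on the main probe of that gene, which gave the tested values and is not printed. The Slc6a19 probe lies at chr1:30411522-30411581 in rn4, the build of the array files. The second of the 2 Slc6a18 probes is listed over 1152 bases, chr1:30420374-30421525, and so is split in the genome. Neither has a marked stretch.
Slc6a19 probe: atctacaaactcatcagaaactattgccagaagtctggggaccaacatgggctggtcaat
Slc6a18 second probe: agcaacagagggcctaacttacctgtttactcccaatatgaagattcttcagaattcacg

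The values, called scaled log2 signal here, are log2 processed signal less each array's own 75th percentile. They compare 1 probe between arrays and not 1 gene with another. A change is a difference of group means on that scale with its standard error (SE), and a gene was called where limma gave an adjusted p under 0.05 over all genes tested. Array brightness, as the 75th percentile of processed signal, ran from 20.1 to 78.5, and 32.8% to 60.5% of probes were well above background. No spot was saturated. Over the genes tested, r between arrays of a group was 0.964 to 0.981, but 0.905 and 0.908 where wild-type 1-week replicate 3 was set against its fellows. As a check of the labelled tissue, all 15 proximal tubule markers were well above background on all 4 control arrays. Brca1 was well above background on neither wild-type control and on 1 of 2 heterozygous controls. It was not called between genotypes in controls, at 1 week or at 3 weeks (adjusted p = 1, 0.69 and 0.88). The site of the mutation is not stated in the labels, so this probe cannot check the genotype.

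In wild-type cortex after 1 week of Fe-NTA, 6 of the 10 transporters were lower than in controls and none was higher: Slc6a19, Slc6a13, Slc3a1, Slc1a1, Slc15a2 and Slc7a9. Over all genes tested, 14.3% were called lower and 27.1% in either direction. The median change of the 10 was -1.50, beside -0.02 over all genes tested. After 3 weeks 4 were lower (Slc6a19, Slc6a13, Slc3a1 and Slc1a1), beside 5.53% of all genes, with a median of -0.50. Without wild-type control replicate 2 none of those 4 was called at 3 weeks, with changes of -2.50, -2.20, -1.91 and -1.32 (adjusted p = 0.067, 0.17, 0.11 and 0.054). In heterozygous cortex 3 were lower after 1 week (Slc3a1, Slc1a1 and Slc6a13), beside 3.2% of all genes, with a median of -0.73, and 3 after 3 weeks (Slc6a19, Slc1a1 and Slc6a13), beside 6.52%, with a median of -0.63. Over all genes the medians of these 3 comparisons were -0.02, -0.03 and 0.01. Treated groups of a genotype were compared with the same 2 controls, so these counts are not independent. Slc6a13 was well above background on every array of the 2 control groups only, and so entered the test through the groups in which it is high. It is among the genes in each of these counts of lower transporters, and its calls are description.

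**Figure D1:**
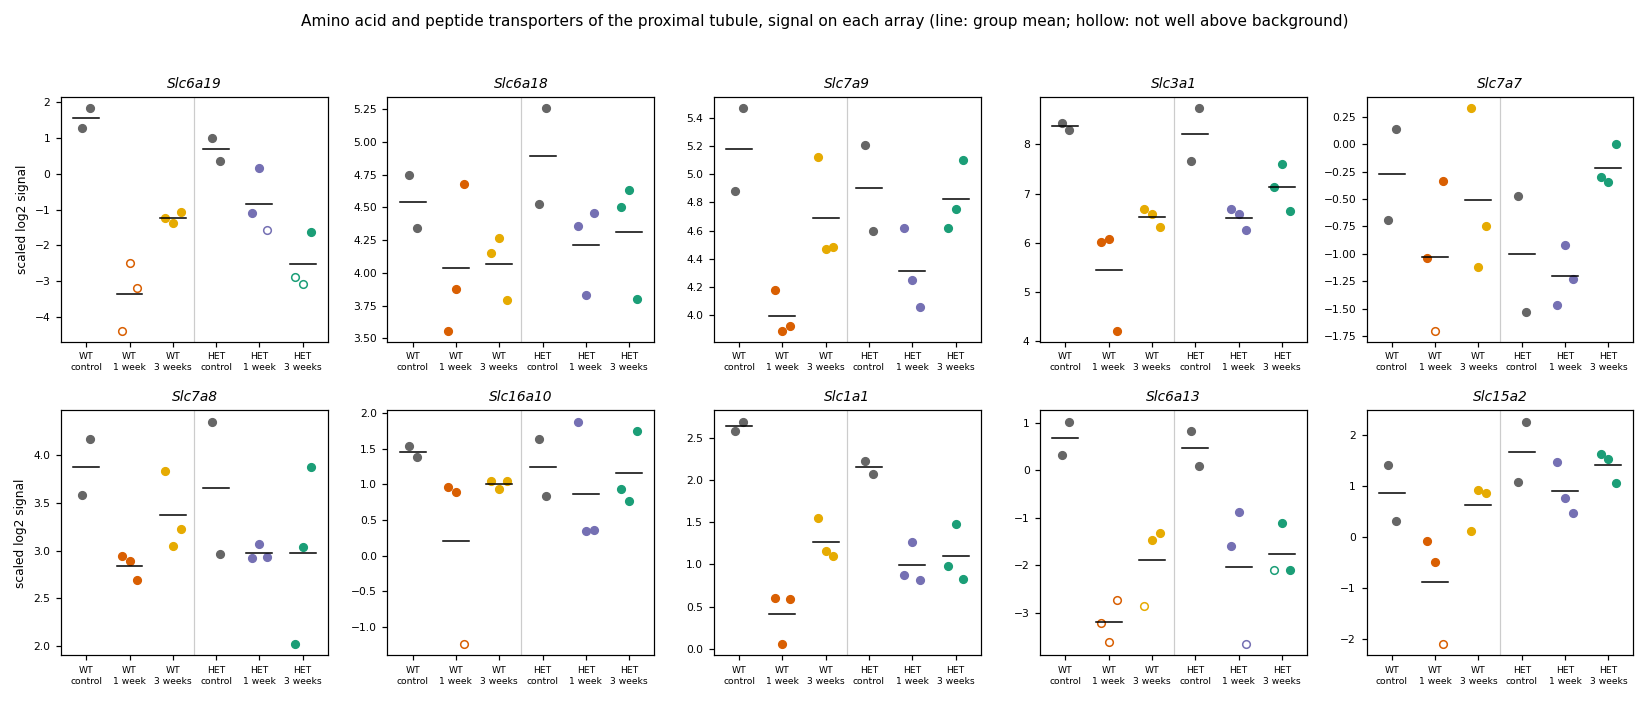
Scaled log2 signal (vertical axes, which differ between panels) of the 10 transporters on each of the 16 arrays, by group (WT, wild-type; HET, heterozygous). Lines are group means and hollow points are arrays on which the probe was not well above background. Slc6a19, Slc3a1, Slc1a1 and Slc6a13 lie below their controls in all 4 treated groups. Slc6a18 lies below its controls in wild-type cortex at 3 weeks and heterozygous cortex at 1 week, and overlaps them in the other treated groups. With 2 or 3 arrays a group such separation, here and throughout the text, is description, and its share over all genes is not given.

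Other RNA moved in the same arrays. Of the 15 proximal tubule markers, 13 were lower in wild-type cortex at 1 week, and 4 in each other treated group, where Cubn, the endocytic receptor cubilin, was the only one called higher (wild-type at 3 weeks, 0.85, adjusted p = 0.034). Their mean centred signal ran from 1.28 to 1.46 in wild-type controls and from -2.10 to -1.45 at 1 week, then from 0.12 to 0.56 at 3 weeks. In heterozygous cortex it ran from 0.85 to 1.38 in controls, -0.82 to 0.27 at 1 week and -0.69 to 0.49 at 3 weeks. Macrophage markers went the other way, with 5, 4, 4 and 5 of 6 called higher in wild-type at 1 and 3 weeks and heterozygous at 1 and 3 weeks. Their centred mean was -1.65 to -1.20 over the controls and -0.45 to 1.02 over the treated arrays, and Adgre1 and Cd163 were well above background on no control. Fibroblast and matrix markers were higher for 3, 4, 2 and 4 of 5, and erythroid markers lower for 3, 3, 4 and 2 of 4. Injury markers, Havcr1 among them, were higher for 5, 4, 4 and 5 of 7. Cell cycle markers were higher for 6, 2, 5 and 1 of 6, and endothelial markers lower for 2, 0, 0 and 0 of 5. Over all 16024 genes tested, 2056, 1405, 681 and 1501 were called higher in the same order, and 2287, 886, 512 and 1045 lower. Without wild-type 1-week replicate 3 the wild-type 1-week counts were 12 of 15 proximal tubule markers lower and 3 macrophage, 2 fibroblast, 5 injury and 6 cell cycle markers higher. The part of these shifts in the transporter values was not tested. In whole cortex, fewer proximal tubule cells and less RNA per cell cannot be told apart.

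The mean of the 10 transporters, each centred on its own average, ran from 0.72 to 1.12 over the 4 controls. It ran from -1.20 to -0.89 in wild-type cortex at 1 week, -0.10 to 0.02 at 3 weeks, -0.56 to 0.02 in heterozygous cortex at 1 week and -0.20 to 0.08 at 3 weeks. No treated array reached a control. Over the 16 arrays it correlated with the mean of the 15 proximal tubule markers at r = 0.965. The points share arrays, brightness and group differences, so r is a description.

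**Figure D2:**
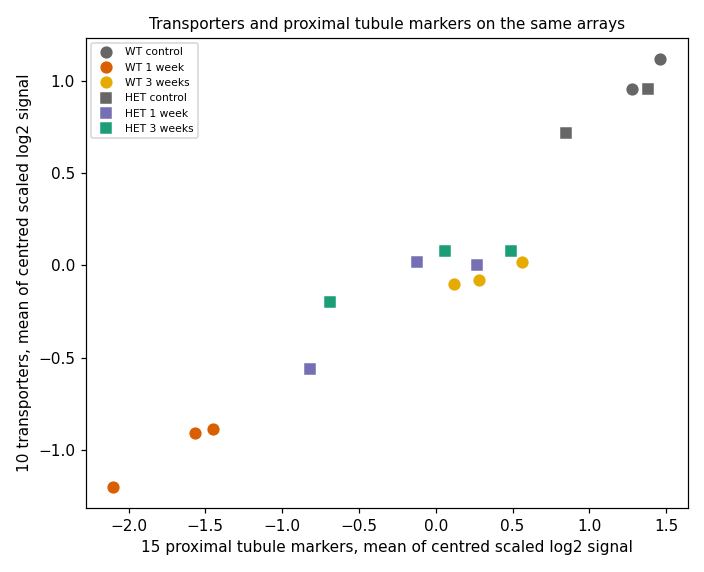
Mean centred scaled log2 signal of the 10 transporters (vertical axis) against that of 15 proximal tubule markers (horizontal axis), 1 point an array, coloured by group, with circles for wild-type and squares for heterozygous rats. The 3 wild-type 1-week arrays are lowest on both axes and the 4 controls highest on both, with r = 0.965 over 16 arrays.

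Among the brush border carriers, Slc6a19 had the largest change in 3 of the 4 comparisons with controls. This sodium-coupled carrier takes up most neutral amino acids. Its scaled log2 signal was 1.28 and 1.83 in wild-type controls, -4.37, -2.49 and -3.18 at 1 week, and -1.24, -1.37 and -1.06 at 3 weeks. None of the 1-week arrays was well above background, and no treated array overlapped the controls. The group means were 1.55 in controls and -3.35 at 1 week. Against the detection limits of the arrays Slc6a19 was at least 15.7-fold lower at 1 week (adjusted p = 3.1e-05). At 3 weeks it fell by 2.77 (SE 0.56, adjusted p = 0.0047).

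In heterozygous rats Slc6a19 was 1.00 and 0.35 in controls, -1.09, 0.15 and -1.56 at 1 week, and -2.87, -3.07 and -1.63 at 3 weeks. Array 3 at 1 week and arrays 1 and 2 at 3 weeks were not well above background. At 1 week it was below the controls on every array, and the change of -1.51 (SE 0.56, adjusted p = 0.12) was not called. At 3 weeks it fell by 3.20 (SE 0.56, adjusted p = 0.002). The controls of the genotypes did not overlap, with a difference of -0.88 (SE 0.62, adjusted p = 1, 0 of 16024 genes called).

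The changes of Slc6a19 from 1 to 3 weeks had opposite signs in the genotypes, and only the wild-type change was called. In wild-type cortex the change was 2.12 (SE 0.50, adjusted p = 0.018), or at least 2.29-fold against the detection limits. The wild-type call was kept in 22 of 29 alternatives. It was lost, among others, with dim values at the limit of the array and when any 1 of the wild-type 3-week arrays was left out. In heterozygous cortex the change was -1.69 (SE 0.50, adjusted p = 0.19). The difference between these time changes, a contrast added after the values were seen, was -3.82 (SE 0.71, 95% interval -5.34 to -2.30, adjusted p = 0.055). That contrast called 0.119% of genes, all of them lower, and none of the 10 transporters, although without heterozygous 1-week replicate 3 Slc6a19 passed (-4.18, adjusted p = 0.029). Against the wild-type limits heterozygous Slc6a19 was 3-fold higher at 1 week. This is no strict bound, since heterozygous array 3 was itself not well above background. The genotype difference at 1 week was called (adjusted p = 0.039). That call was kept in 9 of 29 alternatives, and without wild-type 1-week replicate 3, the array that stood apart, the adjusted p was 0.10. With normexp background correction in place of the scanner's, Slc6a19 changed by -1.27 in wild-type cortex at 1 week (adjusted p = 0.0015), the time change was 0.22 (adjusted p = 0.54) and the genotype difference at 1 week 0.36 (adjusted p = 0.58). That correction added an offset of 50 to every signal, beside array 75th percentiles of 20.1 to 78.5. Changes of dim probes are compressed by the offset, so these values cannot show what the background method alone does.

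Slc6a18, its neighbour and a carrier of glycine and other neutral amino acids in the late proximal tubule, was called in no comparison. The main probe read 4.75 and 4.34 in wild-type controls, 3.56, 3.88 and 4.68 at 1 week, and 4.15, 4.27 and 3.79 at 3 weeks. In heterozygous rats it read 4.53 and 5.26 in controls, 4.36, 3.83 and 4.46 at 1 week, and 4.50, 4.63 and 3.80 at 3 weeks. The 1-week arrays of wild-type rats overlapped their controls, as did the 3-week arrays of heterozygous rats. The wild-type 3-week and heterozygous 1-week arrays all lay below their controls.

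The change of Slc6a18 in wild-type cortex at 1 week was -0.50 (SE 0.37, 95% interval -1.29 to 0.28, adjusted p = 0.35). Slc6a19 in the same comparison was at least 15.7-fold lower. The difference between the genes was not tested. The second Slc6a18 probe changed by -0.80, -0.50, -0.31 and -0.61 in the 4 comparisons with controls, and the main probe by -0.50, -0.47, -0.68 and -0.59. On the second probe both wild-type treated groups lay below their controls, and both heterozygous treated groups overlapped theirs. Both probes were well above background on all 16 arrays.

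Slc3a1, the heavy chain that carries Slc7a9 to the membrane, fell in 3 of the 4 treated groups. Its scaled log2 signal was 8.44 and 8.29 in wild-type controls, 6.02, 6.08 and 4.22 at 1 week, and 6.68, 6.59 and 6.32 at 3 weeks. Each treated array was below both controls. It fell by 2.92 (SE 0.48, adjusted p = 0.00045) at 1 week and by 1.83 (SE 0.48, adjusted p = 0.02) at 3 weeks. Without 1-week replicate 3, whose value was the lowest, the 1-week change was -2.31 (adjusted p = 0.00039). In heterozygous rats Slc3a1 was 7.67 and 8.74 in controls, 6.68, 6.58 and 6.26 at 1 week, and 7.13, 7.61 and 6.65 at 3 weeks. The treated arrays again lay below both controls. The change was -1.69 (SE 0.48, adjusted p = 0.045) at 1 week and -1.07 (SE 0.48, adjusted p = 0.14) at 3 weeks. The 1-week call was kept in at most 15 of 30 alternatives, and it was lost on removal of either heterozygous control.

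Slc7a9, the light chain and transport subunit of the pair, was called in wild-type cortex at 1 week only. It read 4.88 and 5.47 in wild-type controls, 4.18, 3.89 and 3.92 at 1 week, and 5.12, 4.47 and 4.48 at 3 weeks. The 1-week arrays lay below the controls, and the 3-week arrays overlapped them. The fall at 1 week was 1.17 on the log2 scale, with a change of -1.17 (SE 0.30, adjusted p = 0.01), and without wild-type control replicate 2 it was -0.88 (adjusted p = 0.15). In heterozygous rats Slc7a9 read 5.21 and 4.60 in controls, 4.62, 4.25 and 4.06 at 1 week, and 4.62, 4.75 and 5.10 at 3 weeks, with changes of -0.60 (adjusted p = 0.26) and -0.08 (adjusted p = 0.87). In wild-type cortex at 1 week the intervals of the subunits were -3.95 to -1.90 for Slc3a1 and -1.82 to -0.52 for Slc7a9. The difference between the subunits was not tested. Slc3a1 read 4.22 on replicate 3, the array that stood apart, beside 6.02 and 6.08 on the others.

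Slc1a1, the carrier of glutamate, aspartate and cysteine (EAAT3), fell in all 4 treated groups. It read 2.59 and 2.70 in wild-type controls, 0.60, 0.05 and 0.59 at 1 week, and 1.55, 1.16 and 1.10 at 3 weeks. Heterozygous rats gave 2.23 and 2.08 in controls, 0.88, 1.27 and 0.82 at 1 week, and 0.98, 1.48 and 0.83 at 3 weeks. No treated array overlapped its controls. The changes were -2.24 (SE 0.28, adjusted p = 5.2e-05) and -1.38 (adjusted p = 0.0044) in wild-type cortex and -1.16 (adjusted p = 0.02) and -1.06 (adjusted p = 0.02) in heterozygous cortex. The second probe changed by -2.12, -1.24, -0.97 and -1.16. With normexp and its offset of 50 the wild-type 1-week change was -1.12 (adjusted p = 0.00068). From 1 to 3 weeks Slc1a1 rose by 0.86 in wild-type cortex (SE 0.25, adjusted p = 0.045), a call kept in 10 of 30 alternatives. In heterozygous cortex that difference was 0.11 (adjusted p = 0.84). The calls of heterozygous rats were lost without either control array, and the wild-type 3-week call without wild-type control replicate 2 (-1.32, adjusted p = 0.054).

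Slc15a2 (PEPT2), which takes up filtered di- and tripeptides, read 1.42 and 0.31 in wild-type controls, -0.07, -0.49 and -2.11 at 1 week, and 0.11, 0.93 and 0.87 at 3 weeks. Array 3 at 1 week was not well above background. It fell at 1 week, with a change of -1.76 (SE 0.55, adjusted p = 0.028), and without that array the change was -1.15 (adjusted p = 0.081). Without wild-type control replicate 1 it was -1.20 (adjusted p = 0.27). Heterozygous rats gave 1.08 and 2.27 in controls, 1.47, 0.76 and 0.47 at 1 week, and 1.64, 1.54 and 1.07 at 3 weeks. Those treated groups overlapped the controls, with changes of -0.78 (adjusted p = 0.44) and -0.26 (adjusted p = 0.75).

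On the basolateral side, Slc6a13 (GAT2), a carrier of GABA and taurine, was low in every treated group. It read 0.32 and 1.03 in wild-type controls, -3.21, -3.63 and -2.74 at 1 week, and -2.87, -1.46 and -1.33 at 3 weeks. No 1-week array and 2 of 3 arrays at 3 weeks were well above background. At 1 week it was at least 8.63-fold lower (adjusted p = 0.00064, means 0.68 and -3.19), and at 3 weeks the change was -2.56 (SE 0.67, adjusted p = 0.02). Heterozygous rats gave 0.83 and 0.10 in controls, -1.59, -0.87 and -3.67 at 1 week, and -2.11, -1.11 and -2.10 at 3 weeks. In each of these treated groups 2 of 3 arrays were well above background. The changes were -2.51 (SE 0.67, adjusted p = 0.034) and -2.24 (SE 0.67, adjusted p = 0.035). Both calls were lost without either heterozygous control. Slc6a13 entered the test through the control groups, in which it is high, so all of these calls are description.

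The other basolateral carriers were called in no comparison. Slc7a7, the light chain of the exchanger for dibasic amino acids, ran from -0.69 to 0.14 in wild-type controls, -1.70 to -0.34 at 1 week and -1.12 to 0.33 at 3 weeks, all overlapping. In heterozygous rats it ran from -1.53 to -0.47 in controls, -1.47 to -0.92 at 1 week and -0.35 to 0.00 at 3 weeks. Its 3-week arrays thus all lay above the controls, by 0.79 (SE 0.47, 95% interval -0.21 to 1.78, adjusted p = 0.25). It was the only one of the 10 with a positive difference from controls in any treated group, and that difference was not called.

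Slc7a8 (LAT2), an exchanger of neutral amino acids, ran from 3.58 to 4.17 in wild-type controls, 2.69 to 2.94 at 1 week and 3.05 to 3.83 at 3 weeks. The 1-week arrays lay below the controls, with a change of -1.04 (SE 0.47, 95% interval -2.03 to -0.04, adjusted p = 0.12). In heterozygous rats it ran from 2.97 to 4.35 in controls and 2.92 to 3.07 at 1 week, and at 3 weeks from 2.02 to 3.87, with changes of -0.68 at both times (adjusted p = 0.42 and 0.32). Slc7a7 and Slc7a8 lie on the same chromosome, at chr15:31792122-31852732 and chr15:32153016-32212715 in GRCr8, 300283 bases apart.

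Slc16a10 (TAT1), the carrier of aromatic amino acids, read 1.54 and 1.38 in wild-type controls, 0.96, 0.90 and -1.24 at 1 week, and 1.05, 0.93 and 1.05 at 3 weeks. The lowest value is wild-type 1-week replicate 3, which was not well above background. The change at 1 week was -1.25 (SE 0.59, 95% interval -2.52 to 0.01, adjusted p = 0.14) and at 3 weeks -0.45 (adjusted p = 0.66). In heterozygous rats it ran from 0.84 to 1.64 in controls and 0.35 to 1.88 at 1 week, and from 0.77 to 1.75 at 3 weeks, all overlapping. The other Slc16a10 probe was well above background on 3 of 16 arrays and did not pass the filter.

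**Figure D3:**
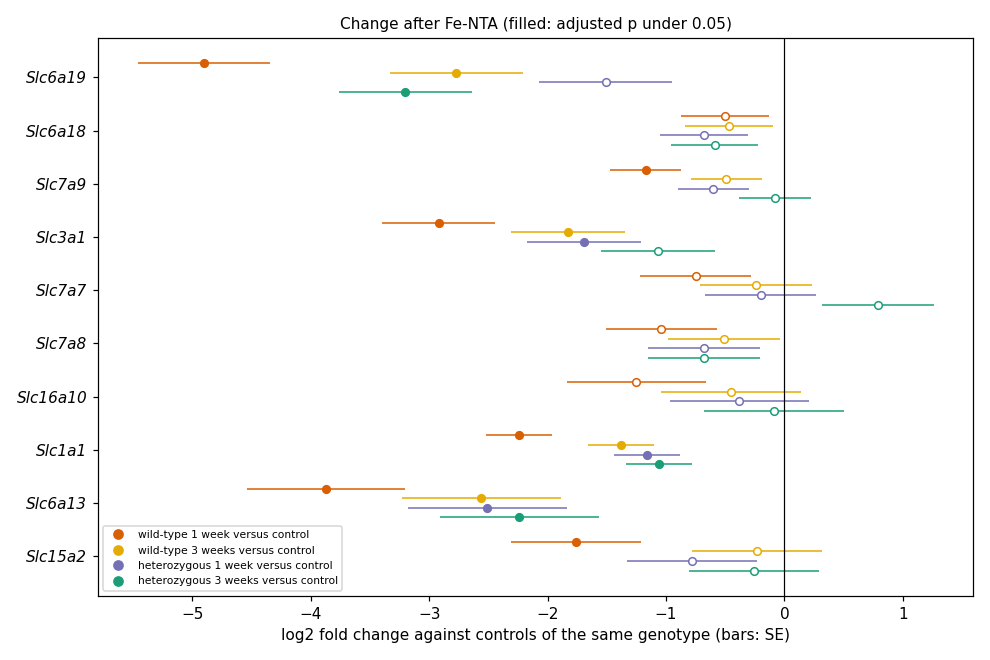
Log2 fold change against controls of the same genotype (horizontal axis) for the 10 transporters (rows) in 4 comparisons, with bars for the SE; filled points have an adjusted p under 0.05. Slc1a1 and Slc6a13 are filled in all 4 comparisons, Slc6a19 and Slc3a1 in 3, and Slc6a18, Slc7a7, Slc7a8 and Slc16a10 in none. Slc6a13 entered the test through its controls, so its calls are description.

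Between times, 2 of the 10 (Slc6a19 and Slc1a1) were higher at 3 weeks than at 1 week in wild-type cortex, beside 5.55% of all genes called higher. The other 8 differences ran from 0.03 for Slc6a18 to 1.52 for Slc15a2, all positive and not called. Of the 15 proximal tubule markers, 8 were called higher in that comparison and none lower. In heterozygous cortex none of the 10 was called between times, beside 0.306% of all genes in either direction. Genotype called none of the 10 in controls and at 3 weeks, where no gene of the 16024 was called, and Slc6a19 alone at 1 week, where 0.493% of genes were called higher. At 1 week 3 of the 15 proximal tubule markers were also called higher in heterozygous than in wild-type cortex, and none lower. At an unadjusted p under 0.05 the genotype comparisons held 0, 4 and 1 of the 10 in controls, at 1 week and at 3 weeks, beside 4.67%, 12.6% and 5.82% of all genes. The genotype-by-treatment interactions at either time called no gene (0%) at the adjusted threshold. At an unadjusted p under 0.05 they held 2 (1 week) and 0 (3 weeks) of the 10, beside 7.63% and 4.74% of all genes.

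Over the 16 arrays Slc1a1 had the highest correlation with the mean of the other 9 transporters (r = 0.911), followed by Slc3a1 (0.856) and Slc6a13 (0.852), and Slc7a7 the lowest (0.187). Slc1a1 was also the nearest of the 10 to Slc6a19 (r = 0.822), Slc3a1 (0.819), Slc6a13 (0.888), Slc7a9 (0.755) and Slc6a18 (0.511). Slc6a18 itself correlated at 0.353 with the mean of the others. These r values are over arrays that share brightness and group differences.

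Among the partners and regulators of these carriers, Cltrn (collectrin) was 7.20 and 7.57 in wild-type controls, 3.57, 3.24 and 2.50 at 1 week, and 5.81, 5.44 and 5.39 at 3 weeks. In heterozygous rats it was 7.09 and 6.57 in controls, 5.14, 4.95 and 4.12 at 1 week, and 5.52, 6.20 and 5.53 at 3 weeks. No treated array overlapped its controls. Cltrn fell by 4.28 (SE 0.37, adjusted p = 4.3e-06) and 1.84 (adjusted p = 0.0046) in wild-type cortex, and changed by -2.09 (adjusted p = 0.0036) and -1.08 (adjusted p = 0.061) in heterozygous cortex.

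Anpep, the brush border aminopeptidase N, was 3.19 and 3.34 in wild-type controls and 2.75, 2.89 and 4.68 at 1 week. Replicate 3, the array that stood apart, was the one above the controls, and the other arrays lay below them. The changes were 0.18, -0.26, -0.20 and -0.55 in the 4 comparisons with controls, none called, and without that array the first was -0.44 (adjusted p = 0.35). Hnf4a, a transcription factor of the proximal tubule, was 5.35 and 5.62 in wild-type controls, 3.84, 3.39 and 2.97 at 1 week, and 4.85, 5.58 and 5.37 at 3 weeks. It fell at 1 week (-2.08, SE 0.37, adjusted p = 0.00081) and overlapped the controls at 3 weeks (-0.22, adjusted p = 0.74). In heterozygous cortex its changes of -0.61 and -0.52 were not called (adjusted p = 0.36 and 0.33).

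**Figure D4:**
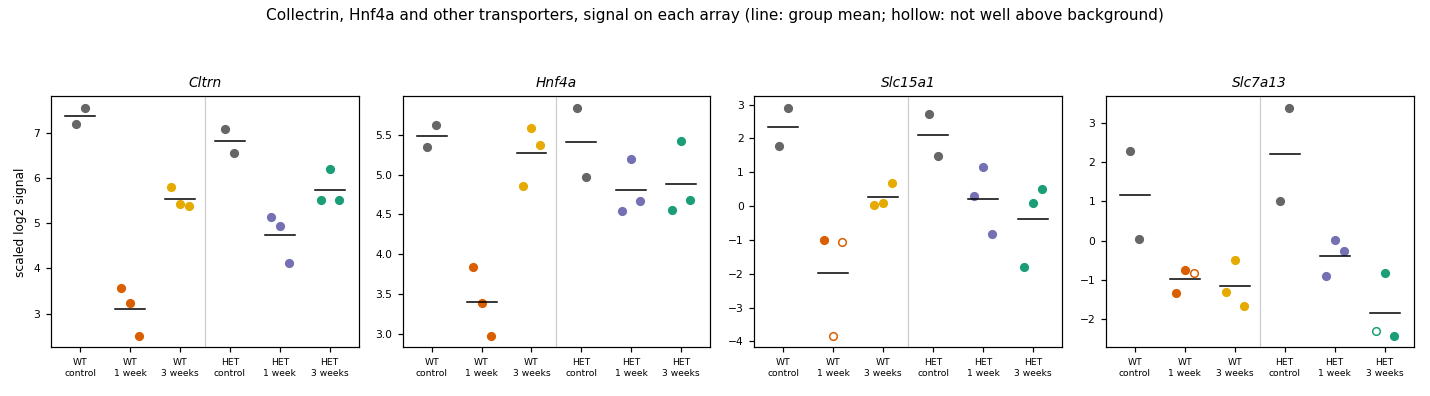
Scaled log2 signal (vertical axes, which differ between panels) of Cltrn, Hnf4a, Slc15a1 and Slc7a13 on each of the 16 arrays, by group. Lines are group means and hollow points are arrays on which the probe was not well above background. Cltrn lies below its controls in all 4 treated groups, and Hnf4a in wild-type cortex at 1 week but not at 3 weeks.

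Of 35 other amino acid and peptide transporters 18 were tested. In wild-type cortex at 1 week 6 were lower, beside 14.3% of all genes, and none higher, with a median of -0.55, and the 4 with the smallest p are named. Slc15a1 (PEPT1), the peptide carrier of the early proximal tubule, was 1.79 and 2.91 in controls and -0.99, -3.84 and -1.06 at 1 week, a change of -4.31 (SE 0.84, adjusted p = 0.0016) with 1 of 3 treated arrays well above background. Slc36a4 changed by -0.99 (adjusted p = 0.014), Slc38a6 by -1.58 (adjusted p = 0.016) and Slc43a2, an exporter of large neutral amino acids, by -1.28 (adjusted p = 0.019). Without wild-type 1-week replicate 3, 5 of the 18 were lower.

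Slc7a13 (AGT1), a light chain that pairs with Slc3a1 in the late proximal tubule, was called lower in all 4 treated groups. It was 2.29 and 0.04 in wild-type controls and 1.01 and 3.39 in heterozygous controls. At 3 weeks it was -1.31, -0.48 and -1.66 in wild-type and -2.30, -0.82 and -2.43 in heterozygous rats. The treated arrays lay below the controls, and the controls differed among themselves by more than 2 on the log2 scale. The changes were -2.14 (adjusted p = 0.037), -2.32 (0.042), -2.58 (0.039) and -4.05 (0.002) in wild-type at 1 and 3 weeks and heterozygous at 1 and 3 weeks. Without wild-type 1-week replicate 3 the first was -2.21 (adjusted p = 0.055).

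Few of these other carriers rose. Slc38a1, a sodium-coupled glutamine carrier, was well above background on every array of heterozygous rats at 3 weeks and of no other group, so it entered the test through the group in which it is high and its calls are description. It was well above background on no control and on 1 of 3 heterozygous 1-week arrays. Against the limits of the heterozygous controls it was higher by at least 3.02-fold at 3 weeks (adjusted p = 0.0049). At 1 week it was called higher (adjusted p = 0.035). Its 2.08-fold difference there is no bound, since the treated arrays were mostly not well above background themselves. Slc6a17 was at least 2.6-fold higher in wild-type cortex at 3 weeks (adjusted p = 0.014). Slc7a12, an amino acid carrier of kidney, was called lower in heterozygous cortex at 1 week (adjusted p = 0.035), by at least 7.18-fold from the mean of the controls. It too is description, since only the heterozygous controls, at -2.15 and 2.12, were all well above background. The first control lay below the detection limit of 1-week replicate 3 (-1.85), so the size rests on the second control. In all, 1 of 18 was higher and 1 lower in wild-type at 3 weeks, beside 8.77% and 5.53% of all genes. In heterozygous cortex 1 was higher and 2 lower at 1 week, beside 4.25% and 3.2%, and 1 higher and 1 lower at 3 weeks, beside 9.37% and 6.52%. The medians of these 3 comparisons were -0.15, -0.42 and -0.27.

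The genes with the pattern most like the mean of the 10 were taken from 7640 named genes well above background on all 16 arrays. They were Ipp (r = 0.982), Mccc2 (0.979), Spink1l (0.978), Hsd17b4 (0.976) and Glyat (0.975). Mccc2 is a subunit of an enzyme of leucine breakdown, Hsd17b4 an enzyme of peroxisomal fatty acid oxidation and Glyat the glycine N-acyltransferase. In wild-type cortex at 1 week they changed by -2.94, -2.42, -6.76, -2.01 and -3.84.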

How the data were processed

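Per the file headers, the authors' scanner files hold spot intensity from Agilent Feature Extraction 10.7: a processed signal, background-subtracted and with substitute values for dim spots, not scaled between arrays, and other columns of flags. Log2 values fill the authors' deposited value table. They equal the log2 processed signal minus about the 75th percentile of each array (r = 1 on every array, scale and direction the same, no centring per gene) and served as an alternative. Its scaling step is not given in the sources used.

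From 62976 spots an array, 4259 control spots and outlier spots were left out and spots averaged to 45598 probes. The filter kept 20452 probes, those for which all arrays of 1 or more groups were well above background. The 21229 probes with an accession in the RefSeq table took its symbol. A gene is its probe with the highest mean. Log2 processed signal minus the array's 75th percentile was tested with limma 3.58.1 in R 4.3.3 (1 mean a group, 10 residual and 4.87 prior degrees of freedom, median residual SD 0.396, Benjamini-Hochberg over 16024 genes, two-sided). The script was tested on simulated data. The 12 contrasts were each treated group against its controls, 3 weeks against 1 week, the genotypes at each stage and 3 interactions. Where no array of a group was well above background, the change is a bound against each array's lowest signal well above background. It is a strict bound only where every array of the other group was well above background. The adjusted p printed beside a bound comes from the test on the values as they were, substitute values included. The number of arrays limits the precision.

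The members and lists were chosen with earlier results of these data known. Named genes are the members, listed partners and regulators (some are not reported here), up to 4 called genes of the other transporters per direction and comparison with the smallest p, and the 5 most similar genes. Slc7a13 is named in wild-type cortex at 1 week outside that rule, after its values were seen. Alternatives changed background correction, scaling, filter, probe choice, samples, slide (2 of 8 arrays each, scanned together) and replicate block. The normexp alternative added an offset of 50 to the signal, which compresses changes of dim probes. Partner, transporter and marker list values without wild-type 1-week replicate 3 were added after the data were seen. Same-numbered arrays of different groups deviated together at r -0.338 to 0.445 (median 0.026), so the numbers were not used as pairs.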

Additional observations from a re-analysis of the deposited data

Results flagged for a closer look

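The changes of Slc6a19 from 1 to 3 weeks had opposite signs in the genotypes, and only the wild-type change was called. In wild-type cortex the change from 1 to 3 weeks was 2.12 (SE 0.50, adjusted p = 0.018 by limma), and every 3-week array was above every 1-week array. That value rests on substitute values in the 1-week group, and against the arrays' detection limits the rise was at least 2.29-fold. In heterozygous cortex it was -1.69 (SE 0.50, adjusted p = 0.19), and every 3-week array was below every 1-week array. The difference was then tested, with the contrast chosen after the values were seen, and was -3.82 (adjusted p = 0.055). No wild-type 1-week array, 2 of 3 heterozygous 1-week arrays and 1 of 3 heterozygous 3-week arrays were well above background, so the sizes rest in part on substitute values for dim spots. Where each array's own limit stood in for dim values the difference was -2.88 (adjusted p = 0.067), and over all alternatives its adjusted p ran from 0.029 to 1.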

How the results depend on the processing

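Counts of the 10 transporters called kept their direction in every alternative. Where they moved by over 1.5 times, the cause was not tested beyond what the alternative changes (fewer genes or arrays). With only probes well above background on all 16 arrays, which left 5 of the 10 to test, the counts were 3, 2 and 1 for wild-type at 1 week, wild-type at 3 weeks and heterozygous at 3 weeks against controls. With no filter they were 2 for wild-type at 3 weeks, 0 for heterozygous at 1 week and 1 for heterozygous at 3 weeks. Within slide 1 they were 3, 2, 0 and 0 for wild-type at 1 and 3 weeks and heterozygous at 1 and 3 weeks, and within slide 2 they were 0 in all 4; with the slide as a block no count of these 4 moved. Without 1 array at a time the ranges were 5 to 6, 0 to 4, 0 to 3 and 1 to 4. The 0 for wild-type at 3 weeks came without wild-type control replicate 2, and 2 without replicate 1. The 0 for heterozygous at 1 week came without heterozygous control replicate 1 or 2, or 1-week replicate 1 or 3, and the 1 for heterozygous at 3 weeks without heterozygous control replicate 1 or 2, or 3-week replicate 1 or 3. For wild-type 3 weeks against 1 week the count of 2 became 1 with normexp, the 75th percentile over probes above background on all arrays, only probes above background on all 16 arrays, dim values at the limit, the mean over probes, only the groups compared, the slide as a block and within slide 1, and 0 with no filter and within slide 2 (0 to 3 without 1 array). For heterozygous against wild-type at 1 week the count of 1 became 0 with normexp, that percentile, no filter, only probes above background on all 16 arrays, dim values at the limit, only the groups compared, the slide as a block, array weights and within either slide (0 to 1 without 1 array). For the interaction of genotype with time the count of 0 became 1 with array weights (0 to 1 without 1 array).

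With the replicate block the counts were 5, 4, 2 and 2 against controls (6, 4, 3 and 3 without it) and 1 for wild-type 3 weeks against 1 week. The replicate numbers are shared in name only: 8 of 36 same-numbered pairs of arrays correlated above 0.1.

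With the 75th percentile taken over probes above background on all arrays, the median of all genes in wild-type at 1 week was 0.19 in place of -0.02, and 61.7% in place of 47.3% of calls were higher; the counts of transporters against controls stayed at 6, 4, 3 and 3. Dim arrays limit Slc6a19 and Slc6a13 most.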
